A study of Mus musculus with 10 samples.

Results

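Glycolysis and hypoxia-response genes were followed in mouse long-term hematopoietic stem cells sorted by neogenin-1 (NEO1), a cell surface receptor encoded by Neo1. The 35 members were chosen by gene symbol and by role, with earlier results of these data known. They include 4 glucose and lactate transporters, 10 enzymes of upper glycolysis and 7 of lower glycolysis with lactate dehydrogenase. The others are 5 genes of pyruvate dehydrogenase and its kinases, 4 subunits of hypoxia-inducible factor (HIF) and 5 oxygen sensors and inhibitors of HIF. All 35 were among the 24544 genes of the table, and 34 passed the filter on low counts, as did 12203 genes in all. The member that did not pass was Eno1. The series asks whether NEO1 separates a myeloid-biased from a balanced population among Hoxb5+ stem cells. Bone marrow came from Hoxb5-mCherry mice, in which a red fluorescent protein reports Hoxb5, at 2 to 3 months of age. Cells of both groups were Hoxb5+, CD34-, FLK2-, CD48-, CD150+, SCA1+, cKIT+ and Lin-, and they were either NEO1+ (5 libraries) or NEO1- (5 libraries); no treatment or further allele was named. Each library held the RNA of 250 to 500 cells pooled from 2 mice. The sex of the mice was not described, and the labels do not say whether a NEO1+ and a NEO1- library came from the same mice.

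In glycolysis, glucose enters through facilitated transporters, is phosphorylated by hexokinase, split into triose phosphates and oxidised to pyruvate. Pyruvate is then either reduced to lactate by lactate dehydrogenase or oxidised in mitochondria by pyruvate dehydrogenase, which pyruvate dehydrogenase kinases switch off. Many of these genes are targets of HIF, a dimer of an oxygen-regulated alpha subunit and ARNT; with oxygen, prolyl hydroxylases (EGLN) mark the alpha subunit for the VHL ubiquitin ligase. Hematopoietic stem cells reside in a bone marrow of low oxygen tension and are known for their reliance on glycolysis.

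Libraries held 21.2 to 38.95 M counts. The ribosomal RNA entry Rn45s took 27.9 to 37.7% of them in NEO1+ libraries (mean 32.3%) and 30.7 to 42.4% in NEO1- libraries (mean 38.4%). Genes with at least 1 count numbered 12800 to 13808 in NEO1+ and 11477 to 13147 in NEO1- libraries, the highest NEO1- value being that of library 4. Levels are given as CPM, the count per M counts of the library; they were computed with library sizes scaled by the trimmed mean of M-values (TMM) method; 3 counts, the limit that a count of 0 allows, were worth 0.0699 to 0.144 CPM. Neo1 checked the labels: it was at 64.8, 48.6, 59.6, 12.5 and 52.1 CPM in NEO1+ libraries 1 to 5 and at 18.9, 11.5, 12.2, 4.56 and 6.15 CPM in NEO1- libraries 1 to 5. NEO1+ library 4 thus lay within the NEO1- range, and the log2 fold change of 2.16 (SE 0.47) had an adjusted p of 0.248 in the quasi-likelihood test of edgeR and of 0.00156 in DESeq2. All 10 markers of hematopoietic stem cells were detected, and their summed level ran from 2014 to 2269 CPM among NEO1+ libraries and from 1948 to 2398 CPM among NEO1- libraries. The summed level of 16 genes of G2 and M phase, which mark cycling cells, did not overlap. It ran from 383 to 636 CPM among NEO1+ libraries and from 94.8 to 257 CPM among NEO1- libraries, with 0 of 16 genes at 0 throughout. The 12 granulocyte and monocyte markers overlapped between groups (493 to 5139 and 382 to 3082 CPM). So did the erythroid list (1483 to 2077 and 1401 to 1710 CPM, led by Car2, with Hba-a2, Hbb-b1, Hbb-bs and Hbb-bt at 0), the megakaryocyte list (796 to 978 and 783 to 1023 CPM) and the stromal and endothelial list (27.9 to 84.4 and 2.68 to 53.9 CPM, with Cdh5 and Lepr at 0). The part of cell cycling, of the number of genes detected and of these cell types in the results on the members was not tested, apart from the fits named below with genes detected as a covariate. In bulk samples, fewer cells of a type and less RNA per cell cannot be told apart.

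HIF binds DNA at a short core word, and promoter sequence is shown here for the 2 members furthest apart between the groups in glucose entry and lactate export (Hk2 and Slc16a3) and for the pair of lactate dehydrogenase genes whose balance differed (Ldha and Ldhb). The words ACGTG and GCGTG were searched on both strands of the RefSeq promoter windows of GRCm38.p6, which run from 250 bases before to 50 bases after a gene's start; a palindromic CACGTG, also the E-box word, counts as 2 overlapping matches. Each line gives the 136 bases from 150 to 15 bases before the start, 5′ to 3′ on the gene's strand, with matches in capitals.
Slc16a3: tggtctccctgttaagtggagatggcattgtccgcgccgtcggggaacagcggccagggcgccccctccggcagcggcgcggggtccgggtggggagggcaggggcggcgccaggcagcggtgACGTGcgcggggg
Hk2: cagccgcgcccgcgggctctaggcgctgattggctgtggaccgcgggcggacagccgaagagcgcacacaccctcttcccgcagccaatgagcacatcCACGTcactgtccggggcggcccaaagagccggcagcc
Ldha: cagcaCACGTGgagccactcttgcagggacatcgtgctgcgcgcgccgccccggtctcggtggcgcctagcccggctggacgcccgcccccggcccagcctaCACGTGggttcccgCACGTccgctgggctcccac
Ldhb: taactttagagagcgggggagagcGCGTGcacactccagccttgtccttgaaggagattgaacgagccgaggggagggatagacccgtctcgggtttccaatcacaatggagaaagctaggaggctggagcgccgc
The stretches lie at chr11:120948917-120949052 (+), chr6:82774469-82774604 (-), chr7:46845654-46845789 (+) and chr6:142507972-142508107 (-) in this order, upstream of the RefSeq start that each window is built on. No annotated exon of GENCODE vM21 overlaps them. The Slc16a3 and Ldha stretches fall inside their genes' annotated spans (chr11:120948484-120959000 and chr7:46842274-46855627), because another annotated start lies further upstream. Hk2 spans chr6:82725025-82774454 and Ldhb chr6:142490249-142507957, and their stretches lie outside these spans. In Ldha, words start 145, 144, 48, 47 and 34 bases before the start, the first and second pairs each being a CACGTG. Hk2 has words at 226 (outside the stretch) and 52 bases, Slc16a3 at 27 and 14 (the latter outside the stretch), and Ldhb at 126 bases before the start.

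Windows were found for 33 of the 35 members, all but Slc2a3 and Epas1. Of these 33, 26 (78.79%) held at least 1 word in the 250 bases before the start, against 38.64% of 27025 genes with a window and 57.2% of the 9833 tested genes with one. Each gene was read by 1 window, the most upstream. In that window no word was found for Hk1, Gpi1, Aldoa, Tpi1, Pkm, Vhl and Hif1an. Hk1, Aldoa and Pkm have 2, 3 and 2 windows, and their further windows were not read here. CACGTG occurred in 7.15% of all windows. A match is a sequence description and says nothing of binding in these cells; Hk2, Slc16a3 and Egln1, whose levels were higher in every NEO1+ library, have words as do most members whose levels overlapped.

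Across the members, no gene passed edgeR at an adjusted p of 0.05 (background 0% of 12203 genes); the smallest adjusted p was 0.499, for Hk2. DESeq2 also called 0 members, with a smallest adjusted p of 0.0801 for Hk2, against 1.07% of 13721 genes called. At an unadjusted edgeR p under 0.05 there were 5 of 34 members, against 6.6% of all genes tested. Hk2, Slc16a3 and Pdk3 were the 3 higher in NEO1+ (3.11% of all genes), and Ldhb and Aldoa the 2 lower (3.49% of all genes). DESeq2 gave 7 of 35 members at that unadjusted level, against 9.73% of 14606 genes. Leaving out NEO1+ library 2 turned the count of 5 into 2 (beside 5.27% of all genes in that fit), leaving out NEO1- library 3 gave 3 (7.73%), and leaving out NEO1- library 4 gave 8 (7.98%). A fit that held genes detected per library as a covariate gave 1, beside 2.27% of all genes. In 3 members, Hk2, Slc16a3 and Egln1, every NEO1+ library lay above every NEO1- library (1.35% of all genes). In 0 members did every NEO1+ library lie below (1.13% of all genes). The filter asked for about 0.318 CPM in at least 5 libraries, and 3 NEO1- libraries held no count of Slc16a3. Slc16a3 thus passed only through its NEO1+ libraries, and its place in these counts depends on the group where it was high. Log2 fold changes, NEO1+ over NEO1-, were above 0 in 20 members and below 0 in 14, with a median of 0.09 beside 0.01 over all genes tested.

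**Figure D1:**
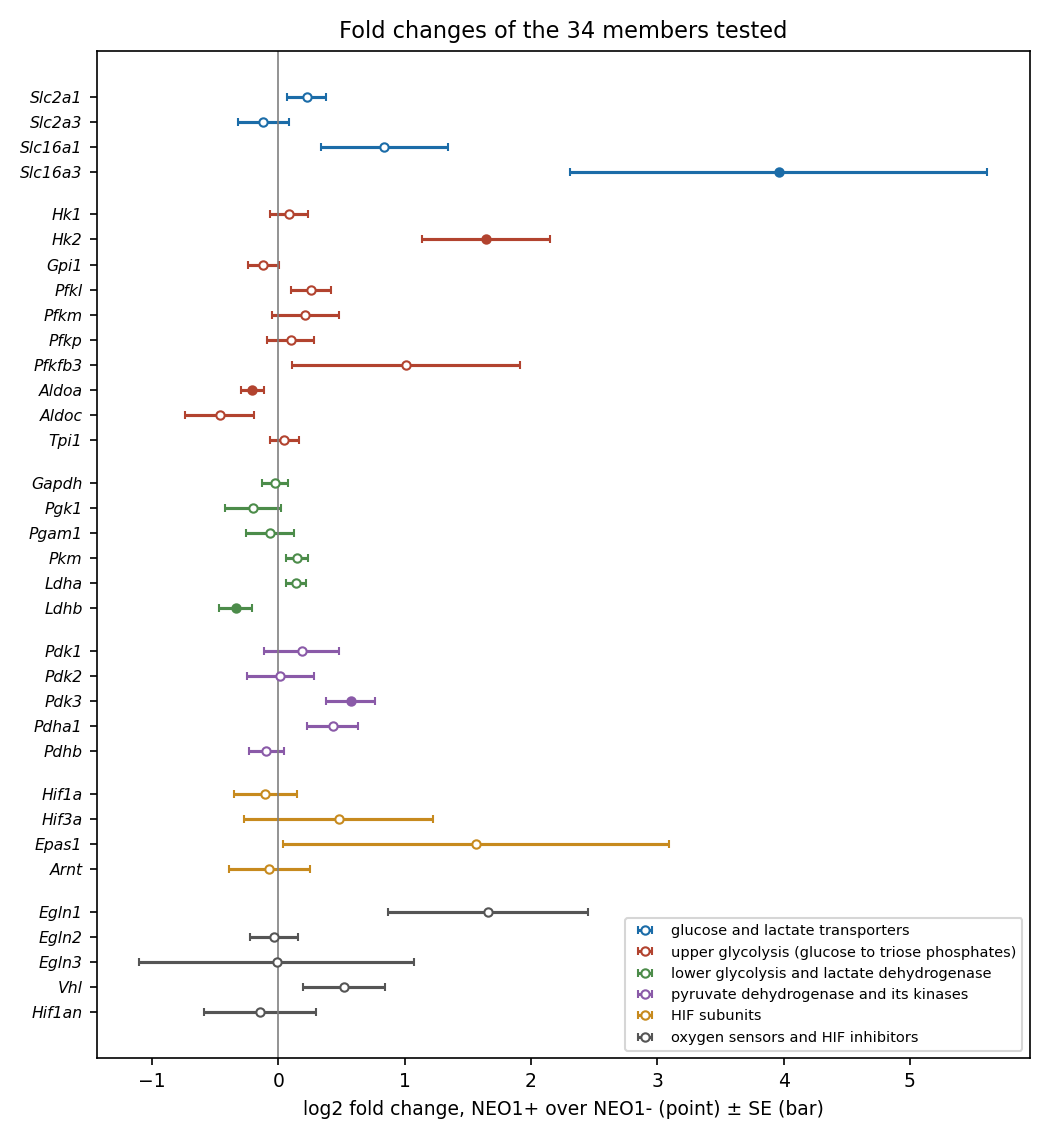
Log2 fold change of NEO1+ over NEO1- for the 34 members tested (x axis; points, with bars for ± SE of the edgeR fit), ordered and coloured by role; filled points had an unadjusted p under 0.05. Slc16a3 (3.96) and Hk2 (1.64) stand to the right, Ldhb (-0.34) and Aldoa (-0.21) a little to the left with short bars, and most members sit near 0.

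Among the transporters, the lactate transporters had higher means in NEO1+ without passing the adjusted test, and the log2 fold changes of the glucose transporters lay near 0. Slc16a3 encodes MCT4, a low-affinity monocarboxylate transporter typical of glycolytic cells and a HIF target. It was at 2.69, 6.47, 11.9, 3.29 and 1.68 CPM in NEO1+ libraries 1 to 5, and at 0, 0, 0, 0.486 and 1.16 CPM in NEO1- libraries 1 to 5. The lowest NEO1+ library was above the highest NEO1- library, and 3 NEO1- libraries held no count, which allows up to 0.0955, 0.140 and 0.102 CPM there. The means were 5.20 ± 4.14 against 0.329 ± 0.509 CPM (SD, n = 5 each), and the fitted log2 fold change of 3.96 (SE 1.65) had an unadjusted p of 0.0315 and an adjusted p of 0.691 in edgeR. Leaving out NEO1+ library 3 gave 3.40, and leaving out NEO1- library 5 gave 5.35. A covariate for genes detected gave 1.29. Slc16a1 encodes MCT1, which carries lactate in either direction; it was at 40.5 ± 10.4 against 22.7 ± 13.1 CPM (mean ± SD, NEO1+ before NEO1- here and in each such pair, n = 5 each; log2 fold change 0.84, SE 0.50), with NEO1- library 2 lowest at 2.15 CPM.

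Slc2a3 encodes the high-affinity glucose transporter GLUT3 and had the highest CPM of the 4 transporters, a ranking that, like the others by CPM given here, is not corrected for transcript length. NEO1+ libraries 1 to 5 held it at 102, 111, 113, 143 and 85.6 CPM and NEO1- libraries 1 to 5 at 137, 85.9, 179, 103 and 96.5 CPM. The groups overlapped over nearly their whole range (log2 fold change -0.12, SE 0.20, edgeR adjusted p 0.998). Slc2a1, which encodes GLUT1, was at 69.2 ± 7.88 against 59.3 ± 6.96 CPM (0.22, SE 0.16). GLUT3 transcripts took 61.3 ± 4.30% of the counts of both transporters in NEO1+ and 66.0 ± 7.79% in NEO1- libraries, a difference of -4.66 percentage points (exact two-sided permutation p 0.214, adjusted 0.357 over the 5 isoenzyme shares compared).

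Hexokinase traps glucose in the cell as glucose 6-phosphate, and the gene of its isoenzyme 2 had the smallest edgeR p of the members. Hk2 encodes the inducible, mitochondria-bound isoenzyme and is a HIF target. NEO1+ libraries 1 to 5 had 39.0, 14.7, 16.0, 24.5 and 16.6 CPM and NEO1- libraries 1 to 5 had 11.5, 2.01, 9.75, 7.81 and 4.37 CPM. All NEO1+ libraries were above all NEO1- libraries, and NEO1+ library 1 was the highest. The NEO1+ mean of 22.2 ± 10.2 CPM was 3.13 times the NEO1- mean of 7.09 ± 3.88 CPM (SD, n = 5 each). The log2 fold change of 1.64 (SE 0.51) had an unadjusted p of 0.00609 and did not pass adjustment over all genes (edgeR 0.499). It was 1.34 without NEO1+ library 1 and 2.09 with genes detected as a covariate.

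Hk1, the constitutive hexokinase, was at 167 ± 16.8 against 157 ± 36.1 CPM, which is 0.08 on the log2 scale and -0.24 with genes detected as a covariate. The balance of both hexokinases does not depend on library scaling, since both counts come from 1 library. Hk2 took 21.3, 8.14, 7.70, 12.8 and 9.13% of the Hk1 and Hk2 counts in NEO1+ libraries 1 to 5, and 7.51, 1.54, 7.07, 4.25 and 2.02% in NEO1- libraries 1 to 5. The groups did not overlap, although the gap between NEO1+ library 3 and NEO1- library 1 was small. The mean shares of 11.8 ± 5.68% and 4.48 ± 2.77% differed by 7.35 percentage points (exact two-sided permutation p 0.00794, the smallest that 252 assignments allow, and 0.0198 adjusted over the 5 shares). Without NEO1+ library 1 the difference was 4.97 points, and over the fits that each left out 1 library the unadjusted exact p lay between 0.00794 and 0.0397. These are shares of counts, not of molecules, since transcript lengths differ. The summed level of the G2 and M phase genes also did not overlap between the groups, although single genes of that list did. The part of these genes in this result was not tested.

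**Figure D2:**
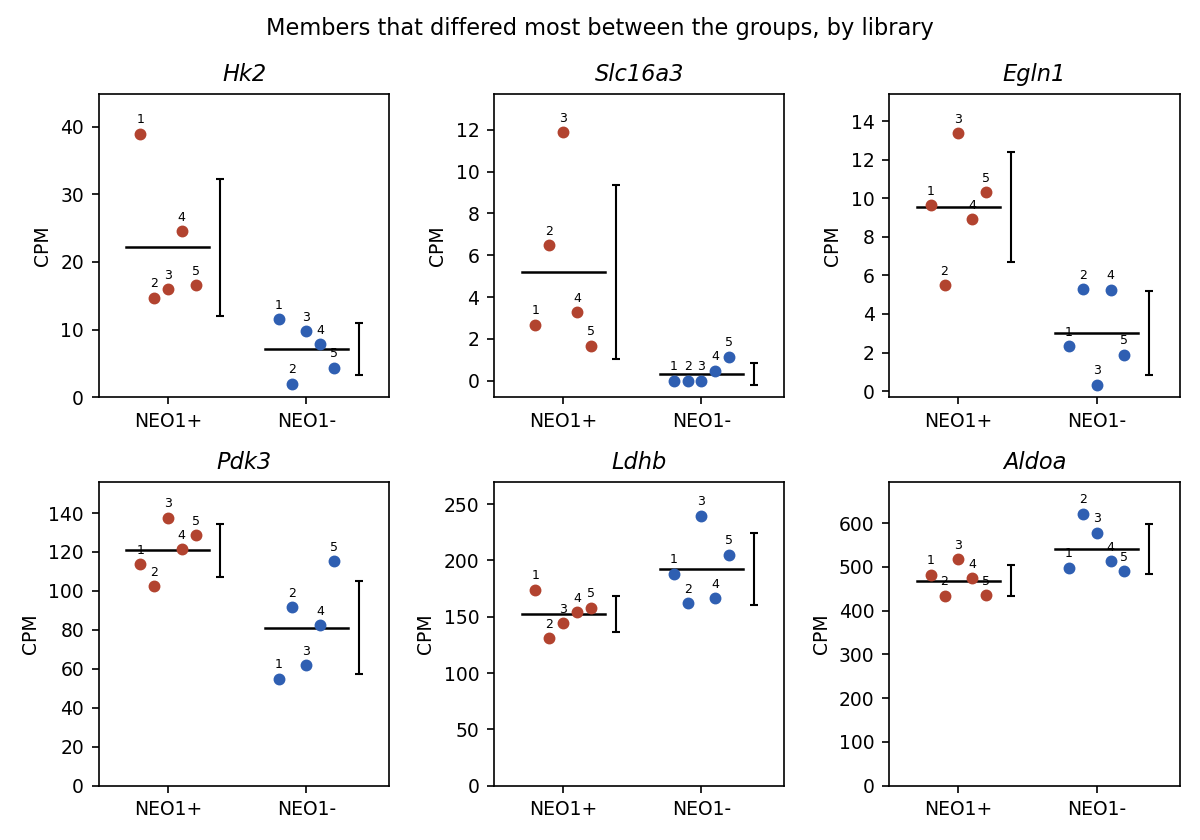
CPM (y axis, from 0 in each panel) of the 6 members with an unadjusted p under 0.05 or with groups that did not overlap, in each NEO1+ and NEO1- library; numbers are library numbers, horizontal lines the means and vertical bars ± SD (n = 5 each). Hk2, Slc16a3 and Egln1 show no overlap between groups, while Pdk3, Ldhb and Aldoa overlap in part.

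Of all 10 genes of upper glycolysis, Hk1 and Hk2 included, 7 had log2 fold changes above 0 and 3 below, with a median of 0.09. Aldoa encodes aldolase A, which splits fructose 1,6-bisphosphate, and had the highest CPM of these 10 genes. It was at 482, 434, 518, 474 and 435 CPM in NEO1+ and at 498, 622, 578, 513 and 490 CPM in NEO1- libraries 1 to 5. NEO1+ library 3 was above 3 of the NEO1- libraries, so the groups overlapped. The means were 469 ± 35.2 against 540 ± 57.2 CPM (log2 fold change -0.21, SE 0.09, unadjusted p 0.0393, edgeR adjusted p 0.721). Aldoc, the aldolase C gene, also had a negative value of -0.47 (SE 0.27; 27.8 ± 5.48 and 38.4 ± 12.6 CPM).

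The phosphofructokinase subunits catalyse the committed step of glycolysis. Pfkl was at 171 ± 27.7 against 143 ± 27.6 CPM (log2 fold change 0.26, SE 0.16), Pfkm at 58.1 ± 9.99 against 50.1 ± 21.6 CPM (0.21, SE 0.27) and Pfkp at 85.2 ± 8.97 against 79.7 ± 20.4 CPM (0.10, SE 0.18). Pfkp took 27.4 ± 4.05% of the counts of the 3 genes in NEO1+ and 29.5 ± 6.57% in NEO1- libraries, a difference of -2.14 points (exact permutation p 0.563, adjusted 0.659). Pfkfb3 encodes an enzyme that makes fructose 2,6-bisphosphate, the activator of phosphofructokinase. It lay at 16.2 to 34.4 CPM in NEO1+ libraries, and at 0.102 to 10.4 CPM in NEO1- libraries except for library 4 with 41.3 CPM. Its log2 fold change of 1.01 (SE 0.90) was 2.39 without NEO1- library 4 and -0.04 with genes detected as a covariate. Gpi1, glucose 6-phosphate isomerase, was at 322 ± 24.8 against 350 ± 62.8 CPM (-0.12), and Tpi1, triose phosphate isomerase, at 333 ± 47.0 against 323 ± 39.4 CPM (0.05).

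In lower glycolysis, the enzyme levels were close between the groups, and the balance of the lactate dehydrogenase subunits differed. Ldha encodes the M subunit, which is a HIF target and favours lactate formation, and it had the highest CPM of the members. Its levels were 932, 877, 972, 969 and 944 CPM in NEO1+ libraries 1 to 5 and 970, 765, 925, 853 and 745 CPM in NEO1- libraries 1 to 5. The means of 939 ± 38.6 and 851 ± 97.7 CPM overlapped in range (log2 fold change 0.14, SE 0.08, unadjusted p 0.107, edgeR adjusted p 0.847). Ldhb encodes the H subunit, which favours pyruvate formation. It was at 174, 131, 144, 154 and 158 CPM in NEO1+ and at 188, 162, 240, 166 and 205 CPM in NEO1- libraries 1 to 5. Only NEO1+ library 1 was above any NEO1- library, and the means were 152 ± 16.0 against 192 ± 31.7 CPM (log2 fold change -0.34, SE 0.13, unadjusted p 0.0219, edgeR adjusted p 0.624).

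Ldha took 84.3, 87.0, 87.1, 86.3 and 85.7% of the Ldha and Ldhb counts in NEO1+ libraries 1 to 5, and 83.7, 82.5, 79.4, 83.7 and 78.4% in NEO1- libraries 1 to 5. Every NEO1+ library was above every NEO1- library, with NEO1+ library 1 closest to the other group. For this share and for that of Hk2, how often shares of other gene pairs separate in this way was not examined. The mean shares of 86.1 ± 1.16% and 81.6 ± 2.49% differed by 4.51 percentage points (exact two-sided permutation p 0.00794, 0.0198 adjusted over the 5 shares). When 1 library was left out the difference lay between 3.72 and 5.06 points, with an unadjusted exact p of 0.00794 to 0.0238; without NEO1+ library 4, whose Neo1 level was low, it was 4.46 points, and the Hk2 difference was 7.10 points. The promoter stretches shown above were picked for this pair of genes. They hold 5 matches for Ldha, where each CACGTG counts as 2, and 1 for Ldhb. Whether HIF plays a part in this balance was not tested. As for Hk2, the summed level of the G2 and M phase genes, though not that of each gene, separated the groups. The part of these genes was not tested.

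**Figure D3:**
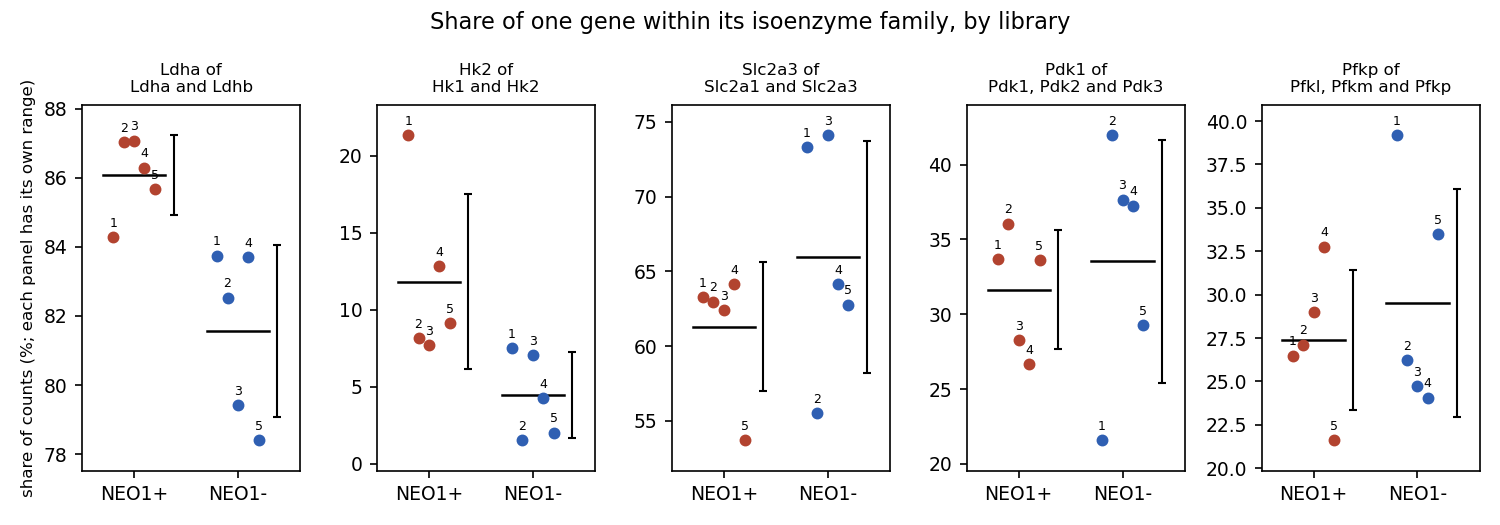
Share of counts (y axis, %, with a separate range in each panel that does not start at 0) of 1 gene within its isoenzyme family, in each NEO1+ and NEO1- library; numbers are library numbers, horizontal lines the means and vertical bars ± SD (n = 5 each). The Ldha and Hk2 shares do not overlap between the groups, and the Slc2a3, Pdk1 and Pfkp shares do.

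Pkm encodes pyruvate kinase, whose M1 and M2 splice forms a gene-level count does not tell apart. It was at 837 ± 57.6 against 756 ± 83.1 CPM (log2 fold change 0.15, SE 0.09, edgeR adjusted p 0.848). Gapdh, the triose phosphate oxidising enzyme often used as a reference gene, was at 471 ± 49.7 against 480 ± 60.5 CPM (-0.03, SE 0.11). The ATP-forming Pgk1 was at 76.3 ± 5.79 against 87.7 ± 33.1 CPM (-0.20, SE 0.22), and the phosphoglycerate mutase Pgam1 at 44.8 ± 5.11 against 46.8 ± 9.03 CPM (-0.06, SE 0.19). Eno1, the enolase of most cells, had only 0 to 4 counts per library. Its near-identical intronless copy Eno1b was at 0.350 to 0.912 CPM, so the level of Eno1 is uncertain. Gapdh, Pgk1, Pgam1, Tpi1, Aldoa, Pkm and Ldha likewise have processed copies in the genome, and reads shared with copies make their levels uncertain; the handling of such reads by the authors was not given in the sources used here.

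Of the pyruvate dehydrogenase group, 4 genes had log2 fold changes above 0 and 1 below, with a median of 0.18. Pdk3 encodes a kinase that inactivates pyruvate dehydrogenase and is less sensitive to inhibition by pyruvate than its relatives. NEO1+ libraries 1 to 5 were at 114, 102, 138, 121 and 129 CPM and NEO1- libraries 1 to 5 at 55.0, 91.6, 61.9, 82.4 and 115 CPM. NEO1- library 5 overlapped the NEO1+ range and the other NEO1- libraries lay below it. The means were 121 ± 13.5 against 81.2 ± 24.1 CPM (log2 fold change 0.57, SE 0.19, unadjusted p 0.0106, edgeR adjusted p 0.550), and the value was 0.19 with genes detected as a covariate. Pdk1, the kinase best known as a HIF target, was at 77.6 ± 13.8 against 68.4 ± 29.9 CPM (0.18, SE 0.30), and Pdk2 at 46.6 ± 12.4 against 46.1 ± 14.1 CPM (0.02, SE 0.26). Pdk1 took 31.7 ± 3.99% of the counts of the 3 kinases in NEO1+ and 33.5 ± 8.10% in NEO1- libraries, a difference of -1.89 points (exact permutation p 0.659, adjusted 0.659).

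Of the enzyme itself, Pdha1, the catalytic alpha subunit on the X chromosome, was at 69.4 ± 12.7 against 51.6 ± 12.0 CPM (log2 fold change 0.43, SE 0.20, unadjusted p 0.0502). Its partner Pdhb was at 104, 101, 109, 85.8 and 121 CPM in NEO1+ and at 104, 125, 109, 123 and 94.3 CPM in NEO1- libraries 1 to 5. Neither group was higher for Pdhb beyond the spread (log2 fold change -0.09, SE 0.14, edgeR adjusted p 0.997), although both genes encode subunits of 1 tetramer. Pdk3, Pdha1 and Pgk1 are the X-linked members; the log2 fold change of Pgk1 was -0.20.

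The HIF subunits showed no difference beyond the spread between libraries. Hif1a, the alpha subunit that drives most glycolytic targets, was at 38.6, 83.4, 83.0, 72.0 and 103 CPM in NEO1+ libraries 1 to 5 and at 64.1, 96.3, 74.9, 62.1 and 110 CPM in NEO1- libraries 1 to 5. NEO1+ library 1, the library with the highest Hk2 level, had the lowest Hif1a level (log2 fold change -0.10, SE 0.25, edgeR adjusted p 0.998). HIF1A is regulated mainly through protein stability, which transcript counts do not measure. Arnt, the shared beta subunit, was at 25.2 ± 7.53 against 26.5 ± 9.39 CPM (-0.07, SE 0.32). Epas1 encodes HIF2A and was at 5.28, 7.44, 7.25, 2.59 and 17.0 CPM in NEO1+ against 0, 0, 9.69, 3.62 and 0.0331 CPM in NEO1- libraries 1 to 5. It was thus near or at 0 in 3 NEO1- libraries and within the NEO1+ range in 2 (log2 fold change 1.57, SE 1.53, edgeR adjusted p 0.961). The value was 1.08 without NEO1+ library 5 and 3.10 without NEO1- library 3. Hif3a, which can restrain the other alpha subunits, was at 13.2 ± 8.83 against 9.44 ± 5.61 CPM (0.48, SE 0.75), and its log2 fold change was -0.012 without NEO1+ library 4.

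Among the oxygen sensors, Egln1 separated the groups and the others overlapped. Egln1 encodes PHD2, the main prolyl hydroxylase acting on HIF1A in normal oxygen. It was at 9.65, 5.50, 13.4, 8.91 and 10.3 CPM in NEO1+ and at 2.32, 5.29, 0.339, 5.26 and 1.89 CPM in NEO1- libraries 1 to 5. The lowest NEO1+ value lay just above the highest NEO1- value, so the separation is narrow. The mean of 9.55 ± 2.83 CPM was 3.16 times that of 3.02 ± 2.19 CPM, with a log2 fold change of 1.66 (SE 0.79), an unadjusted p of 0.0553 and an edgeR adjusted p of 0.766. With genes detected as a covariate it was 0.86.

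Egln2, which encodes PHD1, had the highest CPM of the sensors: 56.1, 68.7, 67.9, 71.2 and 85.4 CPM in NEO1+ and 63.7, 73.1, 102, 53.7 and 66.1 CPM in NEO1- libraries 1 to 5. Its groups overlapped in full (log2 fold change -0.04, SE 0.19, edgeR adjusted p 0.998). Egln3, the HIF-inducible PHD3 gene, ranged from 3.31 to 10.6 CPM among NEO1+ libraries and from 0 to 18.8 CPM among NEO1- libraries, with a log2 fold change of -0.01 (SE 1.08). That value was 1.80 in limma-voom, 1.54 in limma-trend, 1.13 with genes detected as a covariate, and 1.18 and 1.17 in edgeR and DESeq2 with a replicate block, so its direction is not settled. Vhl, the substrate receptor of the ubiquitin ligase, was at 35.2 ± 8.56 against 24.5 ± 11.0 CPM (0.52, SE 0.33), and -0.075 with genes detected as a covariate. Hif1an encodes FIH, an asparaginyl hydroxylase that blocks coactivator binding, and was at 15.0 ± 5.20 against 16.5 ± 9.81 CPM (-0.14, SE 0.44).

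Genes of the surrounding pathways passed the edgeR adjusted threshold in none of 6 lists. Of 24 tested HIF targets outside glycolysis (of 29 listed), 12 had log2 fold changes above 0 and 12 below, with 0 at an unadjusted p under 0.05. Of 13 other HIF pathway genes, 7 lay above 0 and 6 below; Crebbp, a coactivator of HIF and many other factors, was at 38.9 ± 12.8 against 59.1 ± 16.0 CPM (-0.61, SE 0.25, unadjusted p 0.0289, edgeR adjusted p 0.673). Of 14 other glycolysis genes tested (of 21 listed), 6 lay above 0 and 8 below; the phosphoglycolate phosphatase Pgp, which removes a toxic side product of pyruvate kinase, was at 49.2 ± 6.22 against 32.9 ± 8.54 CPM (0.58, SE 0.23, unadjusted p 0.0250, adjusted 0.633).

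Of 11 other pyruvate dehydrogenase and mitochondrial pyruvate genes, 3 lay above 0 and 8 below. Pdp1, the phosphatase that reverses the action of the kinases, was at 38.3 ± 10.4 against 22.2 ± 5.62 CPM (0.78, SE 0.28, unadjusted p 0.0139, edgeR adjusted p 0.586). Kinase (Pdk3) and phosphatase (Pdp1) thus both had unadjusted p values under 0.05 in the direction of NEO1+. Of 16 citric acid cycle genes, 9 lay above 0 and 7 below: Dlst, a subunit of 2-oxoglutarate dehydrogenase, was at 92.8 ± 20.3 against 69.2 ± 4.68 CPM (0.42, SE 0.17, unadjusted p 0.0240, edgeR adjusted p 0.633). Idh3g, a subunit of isocitrate dehydrogenase, was at 140 ± 9.86 against 175 ± 22.8 CPM (-0.32, SE 0.12, unadjusted p 0.0161, edgeR adjusted p 0.596). Of 8 pentose phosphate genes, 4 lay above 0 and 4 below, with 0 at an unadjusted p under 0.05.

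The members also differed in how much they varied. The coefficient of variation (CV) of CPM was larger over the NEO1- than over the NEO1+ libraries for 30 of 34 members (88.2%), beside 78.2% of 12197 genes with a CV in both groups. The median CV of the members was 17.5% in NEO1+ and 30.2% in NEO1- libraries, beside 27.3% and 41.5% over all genes tested, so a wider spread in NEO1- libraries was common to the table. Tpi1, Pdhb, Hif1a and Hif3a were the 4 members with the larger CV in NEO1+. The 4 widest spreads over NEO1- libraries were those of Epas1, Slc16a3, Pfkfb3 and Egln3. Epas1 had a CV of 68.7% in NEO1+ and 158% in NEO1- libraries, Slc16a3 79.6% and 155%, Pfkfb3 29.6% and 142%, and Egln3 40.6% and 106%. Over NEO1+ libraries the 4 widest were those of Slc16a3, Epas1, Hif3a (67.1%) and Hk2 (46.0%). Narrow spreads were those of Ldha (4.12% and 11.5%), Aldoa (7.52% and 10.6%) and Pkm (6.88% and 11.0%). Of all 35 members, those without any count numbered 3, 2, 1, 0 and 1 in NEO1- libraries 1 to 5 and 0 in each NEO1+ library. They were Slc16a3, Epas1, Egln3 and Eno1, and Eno1 had not passed the filter. Over the whole table, NEO1- libraries also tended to have fewer genes with a count (11477 to 13147, against 12800 to 13808 in NEO1+).

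**Figure D4:**
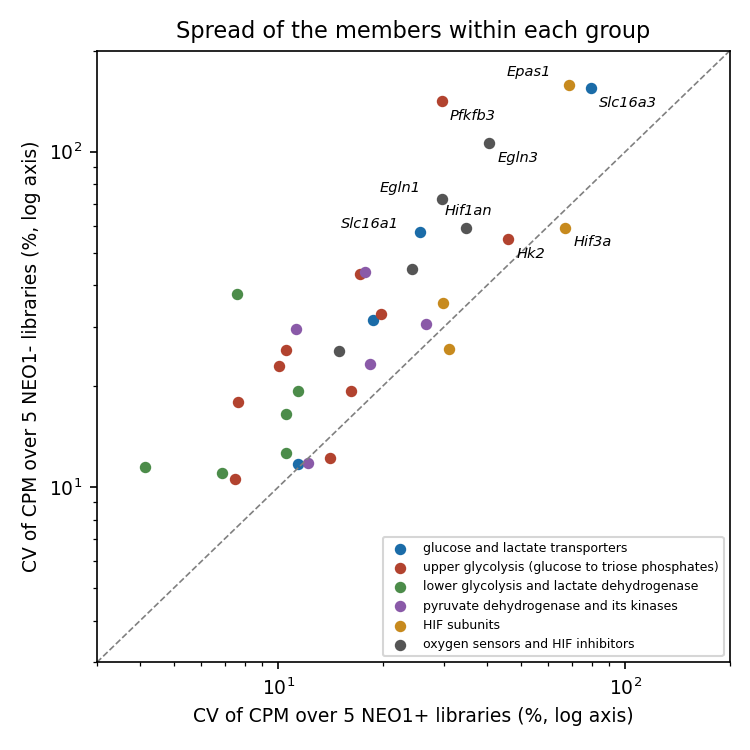
CV of CPM over the 5 NEO1+ libraries (x axis, %, log axis) and over the 5 NEO1- libraries (y axis, %, log axis) for the 34 members tested, coloured by role; the dashed line marks equal values. Of the 34 points 30 lie above the line, with Epas1, Slc16a3 and Pfkfb3 highest.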

How the data were processed

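Raw counts per gene symbol and library were deposited by the authors for 10 Smart-seq2 libraries (oligo-dT primed, 18 PCR cycles, no molecular identifiers, so counting limits cover counting error only). The deposited log2 values equalled log2 of the count over 1 constant per library, plus 1 (largest residual 5.15e-14), and served 1 alternative. Per the submitters' processing notes, bcl2fastq 2.18, STAR 2.4, DESeq2 1.22.2, DESeq and build mm10 were used; the counter, its annotation, strand use and the treatment of multiply mapped reads are not given in the sources used here. Of 24544 genes 8860 had no count.

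Groups were compared in edgeR 4.0.16 (R 4.3.3) by its quasi-likelihood test, after filterByExpr and TMM and with a robust fit (Benjamini-Hochberg over 12203 genes, threshold 0.05; common biological coefficient of variation 0.717), and 5 isoenzyme shares by exact permutation. The procedure was tested on simulated data. Alternatives were DESeq2 1.42.0, limma 3.58.1, other scalings, filters, covariates and left-out libraries. Library totals were 21.2 to 38.95 M counts; within groups no libraries agreed within sampling noise (at least 83.1 chi-square per degree of freedom). Whether libraries come from separate mice is stated only as pools of 2, so p-values measure the spread between these libraries. Same-numbered libraries deviated together only weakly (correlations 0.00403 to 0.0359) and were not paired.

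Members and lists were chosen with earlier results of these data known. Values in every library are given for members with an unadjusted p under 0.05, with groups that did not overlap or with the highest CPM of their role, and for Epas1, chosen after its values were seen; from each other list, up to 2 genes per direction with the smallest unadjusted p under 0.05 are named. Promoter sequences are from RefSeq (GRCm38.p6, the build called mm10); protein sequences were not used here. A list of lymphocyte markers is not reported here.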

Additional observations from a re-analysis of the deposited data

Results flagged for a closer look

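In 84 groups of 5 values, 4 had 1 library far from the others by Dixon's ratio, where chance alone gives about 1 in 20 groups, or 4.2. Pfkfb3 was at 41.3 CPM in NEO1- library 4, the NEO1- library with the most genes detected, and at 0.102 to 10.4 CPM in the other NEO1- libraries. Pkm was at 939 CPM in NEO1+ library 4 and at 806 to 824 CPM in the other NEO1+ libraries. Hif3a was at 28.3 CPM in NEO1+ library 4, beside 6.29 to 12.0 CPM. NEO1+ library 4 is also the library whose Neo1 level lay within the NEO1- range. The Slc2a3 share of Slc2a1 and Slc2a3 counts was 53.7% in NEO1+ library 5, beside 62.4 to 64.2%.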

How the results depend on the processing

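No member passed the adjusted threshold under DESeq2, limma-voom, limma-trend, RLE scaling, no filter, a stricter filter, removal of Rn45s, the covariate or any left-out library. The count of members with an unadjusted p under 0.05 (5) was 9 with limma-voom, 9 with limma-trend on the deposited log2 values, 1 with genes detected as a covariate, and 2 to 8 with 1 library left out. The share of all genes at that level, 6.6% in the edgeR fit, was 11.0%, 9.37%, 2.27% and 5.00 to 7.98% in these settings. Equal library numbers showed no clear pairing, with correlations of deviations of 0.00403 to 0.0359. For no number were the NEO1+ and the NEO1- library each other's best match. With the replicate number as a replicate block, edgeR gave 0 adjusted calls and 6 at the unadjusted level (7.16% of all genes), and DESeq2 gave 5 (Slc16a1, Slc16a3, Hk2, Pdk3 and Epas1, among 724 of 15684 genes, or 4.62%) and 13 (14.4% of all genes). The Ldha and Hk2 shares differed by 4.51 and 7.35 points under the block, each with an exact permutation p of 0.0625, the smallest that 5 pairs allow. Neo1 was 2.15 in DESeq2 (adjusted p 0.00156) and 2.13 with its replicate block (1.64e-09). The median over all genes (0.01) was 0.12 in limma-voom, 0.11 in limma-trend, 0.10 in the edgeR block and 0.13 in the DESeq2 block, so the members' medians of 0.14, 0.13, 0.14 and 0.13 there lay close to it.

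Signs turned as follows, and the causes were not tested. Egln3 was 1.80 in limma-voom, 1.54 in limma-trend, 1.18 in the replicate block, 1.17 in the DESeq2 block and 1.13 with the covariate; Egln2 was 0.016 in limma-voom and 0.24 with the covariate. With the covariate, Slc2a3 was 0.18, Hk1 -0.24, Gpi1 0.064, Pfkfb3 -0.041, Gapdh 0.058, Pgk1 0.070, Pgam1 0.17 and Vhl -0.075. With 1 library left out, ranges crossed 0 for Arnt (-0.18 to 0.14), Egln2 (-0.12 to 0.12), Egln3 (-0.34 to 0.68), Gapdh (-0.10 to 0.030), Hif1a (-0.24 to 0.064), Hif1an (-0.35 to 0.24), Hif3a (-0.012 to 0.65), Pdk1 (-0.034 to 0.41), Pdk2 (-0.094 to 0.16), Pgam1 (-0.14 to 0.051), Pgk1 (-0.32 to 0.026), Slc2a3 (-0.23 to 0.069), Tpi1 (-0.022 to 0.12), the Pdk1 share (-4.88 to 0.21 points) and the Pfkp share (-3.51 to 0.27 points). The stricter filter left 30 members and no value for Slc16a3, Epas1, Pfkfb3 or Egln3. Counts of 3 or fewer in at least 1 library occurred for Slc16a3, Epas1, Pfkfb3, Egln3 and Eno1.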
